A study of Strongylocentrotus droebachiensis with 6 samples.

Results

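SoxB1 and SoxB2 are the SoxB-type transcription factor genes named in a table of gene read counts from a green sea urchin, Strongylocentrotus droebachiensis. They were taken by their gene symbols and make up 2 of the 31261 rows of the table. Polyadenylated RNA came from 6 samples of wild-type embryos at the mesenchyme blastula stage, 3 of control (intact) embryos and 3 of half-size siblings, each grown from a single blastomere. Adults were made to spawn by injection of 1 ml of 0.5 M KCl. For the separation, eggs were fertilised and held in 1 mM aminotriazole (ATA), which keeps the fertilisation envelope soft. Embryos of 2 cells, at 3.5 hours, were washed for 15 min in calcium- and magnesium-free seawater and forced through a needle to part the blastomeres. Both groups were then cultured at 8 °C to 46 hours after fertilisation. The labels do not say whether control embryos also went through the ATA and the wash, and they do not say how many embryos or parents a sample pools. Reads were assigned to genes of a related species, Strongylocentrotus purpuratus, so a stretch of SoxB1 or SoxB2 that differs between these sea urchins could be undercounted in half-size and control libraries alike.

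Sox proteins bind DNA through an HMG box, and the SoxB group is the branch that marks ectoderm and nervous system across animals. In sea urchins SoxB1 is loaded into the egg and is then also made by the embryo. Its protein stays in nuclei of the prospective ectoderm and is cleared from the vegetal cells, where beta-catenin and its DNA-binding partner Tcf/Lef specify endomesoderm, and SoxB1 and beta-catenin oppose each other. SoxB1 is needed for expression of nodal, the ligand that sets up oral ectoderm. SoxB2 is a zygotic gene of the ectoderm and acts in neural progenitors, upstream of SoxC. Separating blastomeres at the 2-cell stage cuts the embryo along the animal-vegetal axis, so each isolated cell keeps animal and vegetal cytoplasm.

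Each library held between 1804336 and 2294541 recovered gene reads. The headers give each column its group but no replicate number. Libraries are named here by pairs A, B and C, each of a half-size and a control library whose values deviated together over 11127 other rows (r = 0.76, 0.63 and 0.52). These pairs come from the values and not from the labels, and they serve to name libraries and as an alternative fit. All 9 skeletogenic mesenchyme markers matched in the table were measured, and their summed normalised count ran from 4619 to 12885 in half-size and from 4513 to 9096 in control libraries. No reference level was at hand, so this sum does not fix the stage of a library.

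SoxB1 and SoxB2 were both expressed in every library, and neither differed between half-size and control embryos beyond the spread between samples. SoxB1 averaged 4324 ± 199 (SD, n = 3) normalised read counts in half-size embryos against 4054 ± 685 (SD, n = 3) in controls. The difference of its mean log2 values corresponds to 1.08-fold. SoxB2 averaged 1066 ± 62.9 (SD, n = 3) against 1065 ± 58.8 (SD, n = 3), a ratio of 1.00. A normalised read count is the number of reads of a gene divided by the size factor of its library. These are counts in RNA of whole embryos, where fewer cells of a type and less RNA per cell cannot be told apart.

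For SoxB1, the 3 half-size libraries held 4334 (pair A), 4518 (pair B) and 4120 (pair C) normalised read counts. The 3 control libraries held 3268 (pair A), 4520 (pair B) and 4375 (pair C). The control library of pair A was the lowest of all 6, and the other 5 libraries lay between 4120 and 4520, so the groups overlapped. These values rest on 3194 to 5248 reads per library, or 0.153% to 0.230% of all gene reads. Counting error alone gives a coefficient of variation of 1.54% in half-size and 1.55% in control libraries, against observed values of 4.60% and 16.9%. For the control library of pair A the 95% exact Poisson interval ran from 3156 to 3384 normalised counts, below the intervals of the other 5 libraries. Intervals from reads cover counting error only.

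The log2 difference of SoxB1, half-size minus control, was 0.11 ± 0.18 (SE), with a 95% interval from -0.29 to 0.50, in the limma-trend fit over 18016 rows (adjusted p = 1.00). On the linear scale this interval runs from 0.820-fold to 1.41-fold. The value was positive only with the control library of pair A in the fit. Without that library it was -0.0414, and leaving out any other single library gave 0.0745 to 0.19. Within pairs A, B and C the log2 difference was 0.41, -0.00069 and -0.0864. As a comparison of single libraries by their reads, the pair A difference had a 95% interval from 0.34 to 0.47 (exact binomial), that of pair B from -0.0565 to 0.0551 and that of pair C from -0.15 to -0.0214. SoxB1 was thus higher in the half-size library of pair A, lower in that of pair C, and indistinguishable by counting in pair B.

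For SoxB2, the 3 half-size libraries held 1107 (pair A), 1099 (pair B) and 994 (pair C) normalised read counts. The control libraries held 999.7 (pair A), 1081 (pair B) and 1114 (pair C). The lowest library was a half-size one and the highest a control one, and the groups overlapped over nearly their whole range. SoxB2 rested on 820 to 1255 reads per library, or 0.0454% to 0.0549% of gene reads. Counting error alone gives a coefficient of variation of 3.10% in half-size and 3.01% in control libraries, and the observed values were 5.90% and 5.52%.

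The log2 difference of SoxB2 was 0.00166 ± 0.16 (SE), with a 95% interval from -0.35 to 0.36 (adjusted p = 1.00 in limma-trend), or 0.783-fold to 1.28-fold. Its sign has no weight, since it turned negative with TMM scaling (-0.00242), with total count scaling (-0.0399), in edgeR (-0.00359) and in edgeR with the pair as a block (-0.00369). The variance of each gene is drawn in limma-trend towards that of other genes with a like level. The 3 libraries per group of SoxB2 on their own give an SE of 0.0683, and those of SoxB1 an SE of 0.15. Within pairs A, B and C the log2 difference of SoxB2 was 0.15, 0.0232 and -0.16. By reads, the 95% interval ran from 0.0213 to 0.27 in pair A, from -0.0910 to 0.14 in pair B and from -0.30 to -0.0333 in pair C. For SoxB2 as for SoxB1, the half-size library was higher in pair A and lower in pair C. Neither gene therefore kept 1 direction over the 3 pairs, which 26.4% of rows with a mean of at least 10 did.

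**Figure D1:**
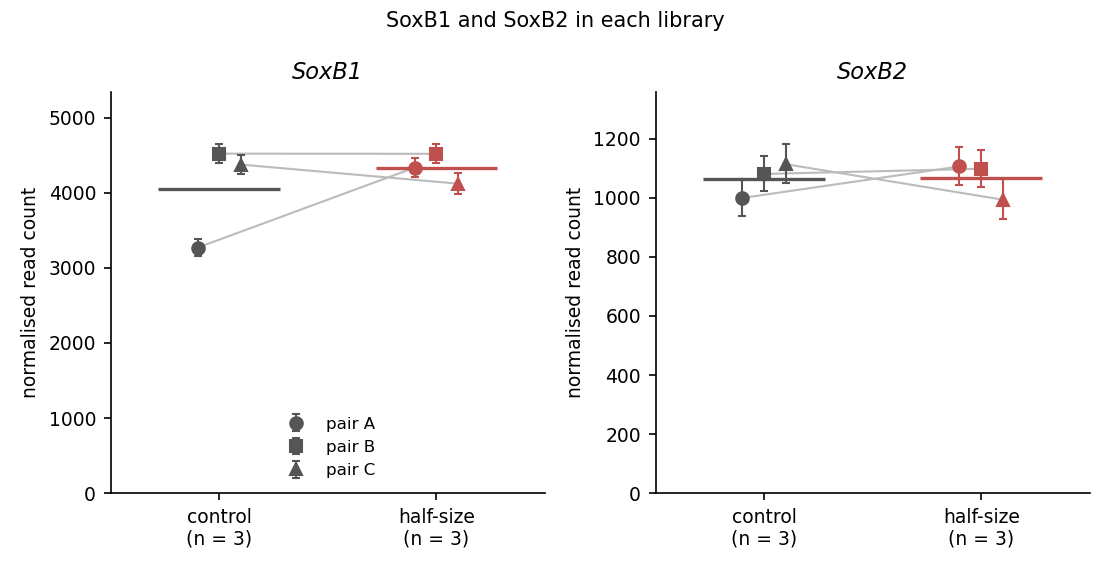
Normalised read count (vertical axis, linear from 0) of SoxB1 (left) and SoxB2 (right) in the 3 control and 3 half-size libraries. Points are libraries, bars on points are 95% Poisson intervals of the reads, horizontal lines are group means and grey lines join the libraries of a pair. The control library of pair A is low for SoxB1 at 3268, and for SoxB2 the groups overlap between 994 and 1114.

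Few rows were called in the whole table. Limma-trend called 0 of 18016 rows (0%) at an adjusted p under 0.05, and 242 rows (1.34%) had an unadjusted p under 0.05. SoxB1 and SoxB2 were not among the latter (unadjusted p = 0.56 and 0.99). DESeq2, run on the recovered reads, called 4 of 23976 rows (0.0167%) and neither SoxB gene (adjusted p = 1.00 each). edgeR called 0 of 11346 rows (0%), with 129 (1.14%) at an unadjusted p under 0.05. With the pair as a block, edgeR called 11 rows (0.097%) and DESeq2 21 of 9346 (0.225%), again without SoxB1 or SoxB2. In blocked limma-trend 950 rows (5.27%) had an unadjusted p under 0.05, and the SoxB genes had 0.42 and 0.99. The authors' deposited table gave SoxB1 a log2 fold change of 0.0929 (SE 0.21) and SoxB2 one of 0.00215 (SE 0.19), with an adjusted p of 1.00 for each. Among 11129 rows with a mean of at least 10, the median size of the log2 difference was 0.16. The difference of SoxB1 was larger in size than that of 35.4% of these rows, and the difference of SoxB2 was larger than that of 0.593%.

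**Figure D2:**
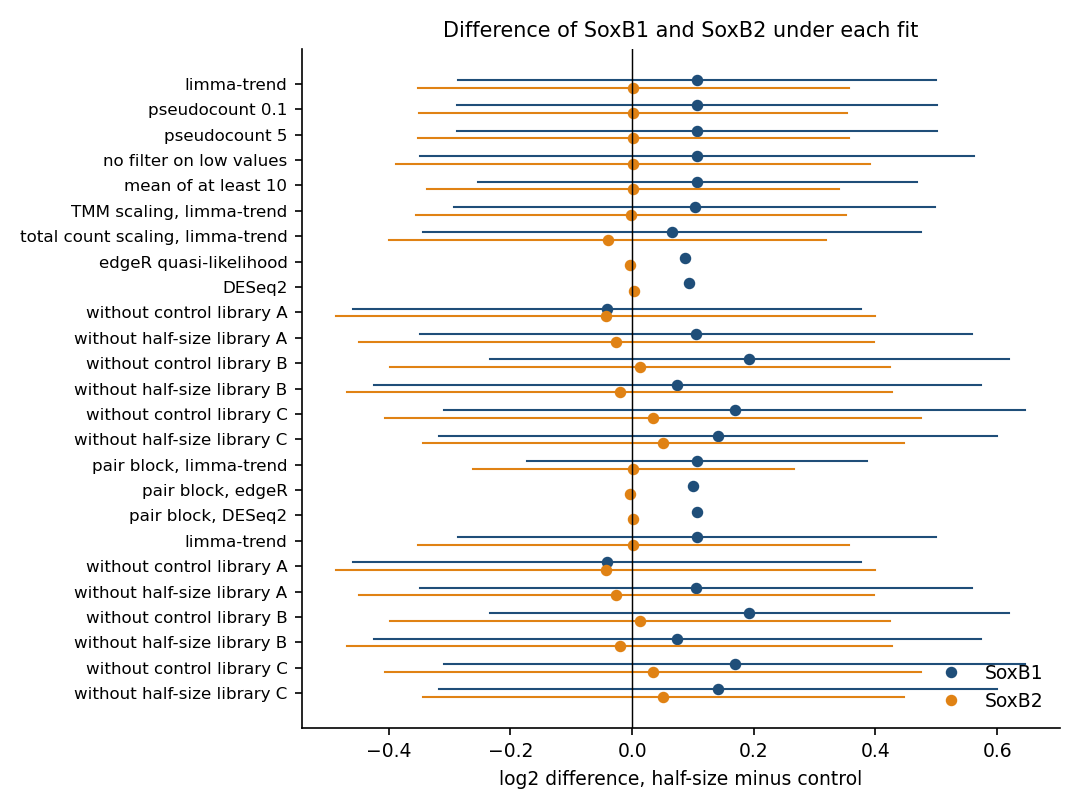
Log2 difference, half-size minus control (horizontal axis), of SoxB1 (blue) and SoxB2 (orange) under each fit (vertical axis). Points are estimates and lines are 95% intervals, given for limma-trend fits only. Every interval spans 0, and the SoxB1 estimate lies between -0.0414 and 0.19.

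Whether the 2 genes differed from each other in their response was tested on the ratio of SoxB1 to SoxB2 reads within each library, where gene length cancels between groups. The ratio was 3.92, 4.11 and 4.15 in the half-size libraries of pairs A, B and C. It was 3.27, 4.18 and 3.93 in the control libraries of the same pairs. The half-size libraries thus lay within the range of the controls, and the control library of pair A stood below the rest. The mean ratio was 4.06 ± 0.124 (SD, n = 3) in half-size libraries against 3.79 ± 0.471 (SD, n = 3) in controls. The mean log2 ratio, half-size minus control, differed by 0.11 (two-sided exact permutation p = 0.7, where the smallest possible p is 0.1). That test ignores the pairs, and the two-sided exact sign-flip test within pairs gave p = 0.5 (smallest possible 0.25). Without the control library of pair A the difference in mean log2 ratio was 0.00171. Over the 6 libraries the log2 levels of SoxB1 and SoxB2 had a Pearson correlation of 0.74 and a Spearman correlation of 0.43, given as a description, since the libraries of a pair are not independent.

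SoxB2 spanned a narrow range across libraries, and with all 6 libraries SoxB1 lay nearer the typical row of its level. From the lowest to the highest of the 6 libraries SoxB1 spanned 1.38-fold and SoxB2 spanned 1.12-fold. The wider span of SoxB1 came from the control library of pair A. In the other 5 libraries SoxB1 spanned 1.10-fold and SoxB2 still 1.12-fold, so the order of the members turned over. Of 11129 rows with a mean of at least 10, the median span was 1.97-fold, and 22 rows had a smaller span than SoxB2. Weakly expressed rows span more through counting error, so the same was counted among the 368 rows with a mean of at least 1000, a limit chosen after the values were seen. There the median span was 1.48-fold, 9 rows (2.45%) spanned less than SoxB2 and 133 rows (36.1%) spanned less than SoxB1. Without the control library of pair A, 13 of these rows (3.53%) spanned less than SoxB2 and 6 (1.63%) less than SoxB1, with a median of 1.46-fold. That library was picked as the lowest for SoxB1, while other rows kept their own extreme libraries. The rank of SoxB1 without it is therefore favoured by the choice. With any other single library left out, 38.9% to 47.8% of these rows spanned less than SoxB1. Of the sum of squares of SoxB1 over the 6 libraries, 45.4% lay between pairs and 10.8% between groups. For SoxB2 these shares were 12.3% and 0.0148%, against medians of 73.7% and 5.36% over the 368 rows. Pairs took up less of the variation of SoxB2 than of a typical row of its level, and no test was made of this. The pairs were found from the values of the other rows, with SoxB1 and SoxB2 left out, so the median share between pairs is favoured by that choice.

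**Figure D3:**
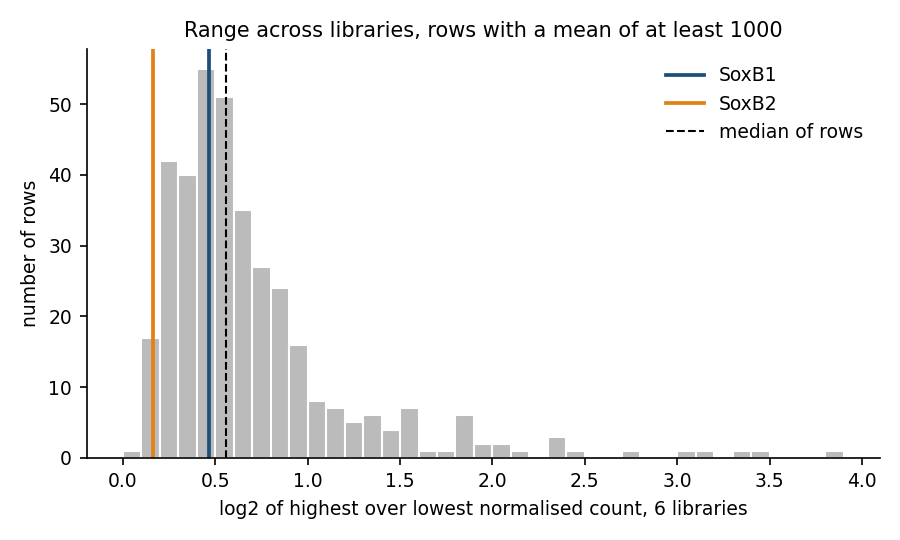
Number of rows (vertical axis) by the log2 of the highest over the lowest normalised count in the 6 libraries (horizontal axis), for the 368 rows with a mean of at least 1000. The solid lines mark SoxB1 (1.38-fold) and SoxB2 (1.12-fold) and the dashed line the median row (1.48-fold), so SoxB2 lies at the even end. Without the control library of pair A, picked as the lowest for SoxB1, SoxB1 spans 1.10-fold.

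Marker genes of embryonic territories, other Sox and HMG-box genes and early blastula genes were described from 8 lists of symbols, which matched 47 measured genes. Of these, 23 had higher and 24 lower values in half-size embryos, with a median log2 difference of -0.0214 against -0.000467 over all 18016 rows. None was called by limma-trend, the rate of the table as a whole. With the pair as a block, dri alone was called (adjusted p = 0.0469 in limma-trend), where 3 rows (0.0167%) were called in all. Groups did not overlap in 6 of the 46 list genes with a mean of at least 10 (13%), against 4.57% of all such rows. All 6 were lower in half-size embryos and 0 higher, against 2.29% and 2.28% of all such rows. They were dri, IrxA, Dlx, Hbox7, hnf6 and GATAe. The lists were chosen with earlier results of these data known, so this count is no independent evidence.

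Of the other Sox and HMG-box genes, soxd1 and Tcf/Lef were matched, 1 lower and 1 higher. For soxd1, a SoxD-type gene, the half-size libraries held 32.7, 29.9 and 25.5 normalised counts in pairs A, B and C and the controls 45.0, 31.9 and 37.0. The half-size library was the lower one in each pair and the groups overlapped, with a log2 difference of -0.35 (95% interval -0.98 to 0.28). Tcf/Lef held 19.8, 30.8 and 10.9 counts in half-size and 11.3, 18.1 and 19.98 in control libraries, higher in pairs A and B and lower in pair C (log2 difference 0.23, 95% interval -0.74 to 1.20). Tcf/Lef spanned 2.82-fold over the libraries, more than either SoxB gene, on far fewer reads. No row was matched for SoxC, SoxE, SoxF or beta-catenin by the symbols searched.

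SpAN, a protease gene of the early blastula whose promoter SoxB1 binds in S. purpuratus, was not matched by its symbol. Its neighbours in time, BMP1, Ets4 and the hatching enzyme gene HE, all had higher means in half-size embryos, and none was called. BMP1, a tolloid-type protease, had a log2 difference of 0.52 (95% interval -0.00933 to 1.04), and Ets4, a regulator of HE, one of 1.27 (95% interval 0.0592 to 2.49). HE had one of 0.96 (95% interval -2.19 to 4.11) and spanned 79.3-fold over the 6 libraries, from 5.94 to 471 normalised counts, beside the 1.38-fold of SoxB1 in the same libraries. Within pairs A, B and C the log2 difference of HE was -0.69, 0.0454 and 3.53, so its higher mean came mainly from the half-size library of pair C. Both libraries of pair A had the least HE (5.94 in half-size and 10.2 in control), whereas only the control library of that pair was low for SoxB1.

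Among 6 anterior neuroectoderm and neural genes, the territory in which SoxB2 acts, 3 had higher and 3 lower values and none was called. The apical plate homeobox gene NK2.1 had a log2 difference of -1.03 (95% interval -1.92 to -0.15). FoxJ1, a regulator of motile cilia, had 0.41 (95% interval -0.0843 to 0.91). The third gene named from this list is Ets4, an ETS-family factor gene whose values stand with the early blastula genes above.

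Of the 8 measured genes of the oral ectoderm list, 4 were higher and 4 lower, with a median log2 difference of -0.0284. The ARID factor gene dri, a gene of skeletogenic cells as well as of oral ectoderm, had -1.21 (95% interval -1.96 to -0.45). The BMP antagonist gene CHRD had 0.33 (95% interval -0.22 to 0.88) and the homeobox gene Lim1 had 0.20 (95% interval -0.30 to 0.70). The genes otx, FoxG, BMP2/4 and Lim1, spanned 1.24-fold to 1.38-fold over the libraries and were thus about as even as SoxB1. These 4 and the aboral genes Hbox7 (1.27-fold) and Tbx2/3 (1.37-fold) were the 6 of 47 list genes that spanned less than SoxB1. None of the 47 spanned less than SoxB2. Without the control library of pair A, picked as the lowest for SoxB1, 0 of the 47 spanned less than SoxB1 or SoxB2. The 47 genes kept their own extreme libraries in that count, and the weakly expressed ones span more through counting error.

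In the aboral ectoderm list 9 of 10 genes had lower values, with a median log2 difference of -0.51, and none was called. Over all 18016 rows 49.9% had higher values. The only higher gene of the list was SPEC1, with 0.21 (95% interval -0.41 to 0.82), named after its values were seen. The homeobox genes IrxA and Dlx had -0.81 (95% interval -1.29 to -0.34) and -0.99 (95% interval -1.72 to -0.26), and HMX had -0.45 (95% interval -0.99 to 0.0887). The list of vegetal antagonists and endoderm genes had 8 measured members, 6 higher and 2 lower, with a median of 0.0229. GATAe, an endoderm factor gene, had -0.54 (95% interval -1.03 to -0.0524), eve, a homeobox gene of the vegetal plate, 0.32 (95% interval -0.37 to 1.01) and the ligand gene Wnt8 0.22 (95% interval -0.37 to 0.80). PMAR1, a repressor gene of the micromeres at earlier stages, fell below the mean of 1 that the fit required. Of the 9 skeletogenic genes 6 were higher and 3 lower, with a median of 0.0152, and P16, erg and Alx1 had 0.21, -0.15 and 0.11. The pigment cell regulator gcm and the mesoderm factor gene GATAc had -0.53 and -0.0591 (both lower, median -0.29).

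**Figure D4:**
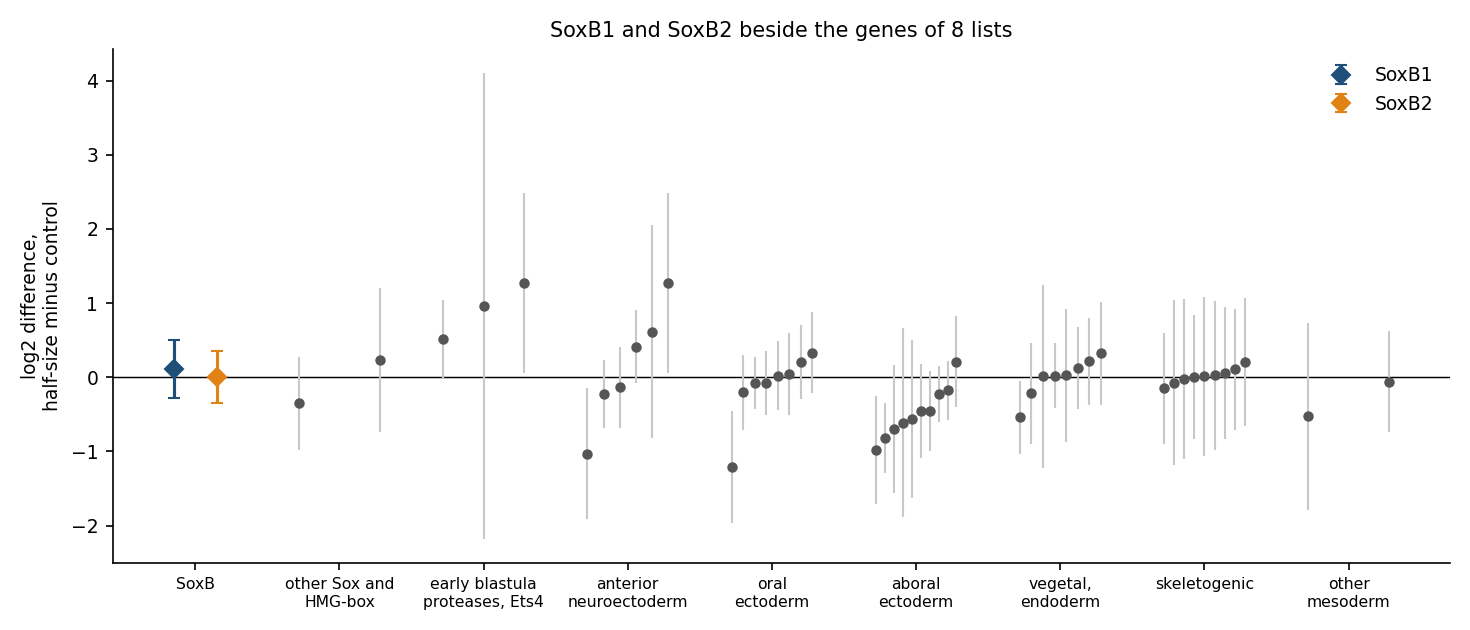
Log2 difference, half-size minus control (vertical axis), with 95% intervals from limma-trend, for SoxB1 (blue) and SoxB2 (orange) and for the measured genes of 8 lists (grey), ordered by value within a list. Ets4 stands in both the early blastula and the anterior neuroectoderm list. SoxB1 and SoxB2 lie at 0.11 and 0.00166, and list genes lie as low as -1.21 (dri, placed in the oral ectoderm list).

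Among 189 other rows with a gene name and a mean of at least 10, the levels most like those of SoxB1 over the 6 libraries were rej (Pearson r = 0.91), rngi (0.79), SLC12A2 (0.78), ABCB1 (0.78) and NCKX (0.74). For SoxB2 they were NCKX (0.98), gnaq (0.89), Tcf/Lef (0.87) and rab11 (0.83). SLC12A2 and ABCB1 encode membrane transporters, NCKX a sodium-calcium exchanger, gnaq a G protein subunit and rab11 a GTPase of recycling vesicles. NCKX held 16.8, 18.5 and 7.27 normalised counts in the half-size and 8.19, 17.2 and 18.98 in the control libraries of pairs A, B and C. It was low in the half-size library of pair C and the control library of pair A, the same libraries in which SoxB2 was lowest. The median correlation over the 189 rows was -0.0187 with SoxB1 and 0.0547 with SoxB2. The means of rej, NCKX and Tcf/Lef were only 17.8, 14.5 and 18.5 normalised counts, where counting error is large. With 6 libraries and 189 rows high correlations arise readily, and these correlations serve as a description of likeness only.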

How the data were processed

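Values came from 1 table of the whole series, with 3 columns per group and gene identifiers of the NCBI annotation of Spur_4.2, per the file headers. Tools listed in the submitters' processing notes, without a role, are edgeR, DESeq and Bowtie2 2.2.2. The library kit marks strand, per the labels' protocols, and neither the counting program nor its strand setting is stated there. The deposited values are a signal, gene read counts that the authors divided by 1 size factor per library. All values (100%) were whole multiples of their column's step within 1e-06, so reads could be recovered. The authors also deposited log2 fold changes with their errors, a test score and p-values, per the file headers.

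Because the values are scaled, log2(value + 1) was fitted by limma-trend (R 4.3.3, limma 3.58.1) for rows averaging at least 1, with Benjamini-Hochberg adjustment over all of them and a threshold of 0.05. This scale understates changes of low genes. edgeR 4.0.16 and DESeq2 1.42.0 on recovered reads were alternatives, as were other scalings, pseudocounts, filters, single libraries left out and a block on pairs A, B and C. The labels call samples biological replicates without naming separate parents or cultures, so p-values reflect only how these samples spread, which may be technical. Half-size columns were matched to control columns by their mean correlation, SoxB1 and SoxB2 left out (0.64 for the matching used and 0.21 for the second best). Genes named from a list are the up to 3 with the smallest p. Likeness ranks the 5 highest Pearson correlations of log2 values, of which 1 for SoxB2 is not reported here. The members, lists and rules were chosen with earlier results of these data known.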

Additional observations from a re-analysis of the deposited data

How the results depend on the processing

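Neither SoxB gene passed the threshold under any of 17 alternatives (smallest adjusted p = 0.954 for SoxB1 and 0.999 for SoxB2, both in limma-trend with the replicate block). The SoxB1 log2 difference stayed between 0.0651 and 0.11 in the 11 alternatives that kept all libraries and ran from -0.0414 (without the control library of pair A) to 0.19 with 1 library left out. SoxB2 was -0.00242 with TMM scaling, -0.0399 with total count scaling, -0.00359 in edgeR and -0.00369 in edgeR with the replicate block, and ran from -0.0431 to 0.0516 with 1 library left out. The difference in the mean log2 ratio of SoxB1 to SoxB2 ran from 0.00171 to 0.18 with 1 library left out, and was 0.11 (two-sided exact sign-flip p = 0.5, smallest possible 0.25) within pairs. The count of 0 called rows was 4 in DESeq2. Under the replicate block it was 21 in DESeq2, 11 in edgeR and 3 in limma-trend. It stayed at 0 in edgeR without the block (129 rows at unadjusted p under 0.05) and with any 1 library left out (range 0 to 0). The cause was not tested. The columns carry no replicate numbers, so the replicate block rests on pairs found from the values, and its p-values take no account of that choice. The log2 span of SoxB1 over libraries, 0.47, was 0.13 to 0.47 with 1 library left out (chosen after the data were examined). In limma-trend each variance is drawn towards that of other genes, which widened the SE of SoxB2 from 0.0683 to 0.16. With that spread and without the block, SoxB1 differences under 1.31-fold and SoxB2 differences under 1.28-fold could not reach an unadjusted p of 0.05. With the block, those under 1.21-fold and 1.20-fold could not.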
